A study of Mus musculus with 2 samples.

Results

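Pi16/Cd248 fibroblasts are the fibroblasts of the mouse right ventricle that carry Pi16, Cd248, Gfpt2, Adgrd1 and Has2 RNA, and they made up 598 of 5265 fibroblast barcodes among 22183 barcodes in all. A fibroblast was a barcode with at least 500 UMIs (unique molecular identifiers, each standing for 1 captured RNA molecule), Ttn and Ryr2 below 2% of its UMIs, at least 3 UMIs of Pdgfra, Dcn, Col1a2 and Abca8a together, and no UMI of Msln or Upk3b. It was a member when the 5 defining genes (A) had at least 2 UMIs together, and more than the sum of Smoc2, Kcnk2, Col15a1, Hs3st3a1 and Mme (B) and more than the sum of Thsd7b, Vit, Fbn2, Kcnb2 and Ccbe1 (C). Members were thus chosen by their own UMI counts of these genes, and the levels of the 23 genes the rule uses carry no test here.

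The tissue came from 2 droplet libraries of right ventricle from C57/BL6J mice of the genotype CBP flox/flox, p300 flox/flox and Trap flox/flox, collected on postnatal day 21. Both libraries belong to 1 group, given AAV9 on postnatal day 1 to knock out p300/CBP. No control group was analysed here, so nothing below measures an effect of the knockout, and every comparison is between classes of barcodes within the same libraries. The labels name neither the promoter nor the recombinase of the AAV9, describe a bead step that enriches for CD45+ cells (leukocytes), and do not say whether the libraries came from separate animals. With the library as a block, the p-values therefore measure only how class differences vary across these libraries, a spread that may be technical.

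Adventitial fibroblasts sit in the outer coat of arteries and veins and in the loose connective tissue around them. In many mouse tissues they are recognised by the secreted peptidase inhibitor Pi16, the surface glycoprotein Cd248 (endosialin), the peptidase Dpp4 and the sialomucin Cd34, and they have been described as a reservoir of less specialised fibroblasts. Hyaluronan, a large sugar polymer of loose connective tissue, is made at the cell membrane by synthases such as Has2 from UDP-N-acetylglucosamine and UDP-glucuronic acid. Gfpt2 starts the hexosamine pathway that supplies the first of these sugars. Position in the tissue was not measured.

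Library 1 held 192 members among 1524 fibroblasts, a share of 12.6% (exact 95% Clopper-Pearson interval 11 to 14.4, counting error only). Library 2 held 406 among 3741, a share of 10.9% (9.87 to 11.9). The mean over libraries was 11.7% ± 1.23 (SD, n = 2). As a share of all barcodes with enough UMIs, members were 1.51% in library 1 and 4.32% in library 2, alongside fibroblast shares of 12% and 39.8%. Members had a median of 2187 UMIs in library 1 and 3696 in library 2, beside 2021 and 3264 in the other fibroblasts. The other fibroblasts fell into a Smoc2/Col15a1 class by B (490 and 1479 barcodes), a Vit/Fbn2/Thsd7b class by C (291 and 696), and the remaining barcodes that passed neither rule (551 and 1160). Of 17 barcode sequences found in both libraries, 0 belonged to members.

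The fibroblast rule did not give a pure class, which touches every comparison with the other fibroblasts. Barcodes in which the summed markers of another cell type reached the sum of the 4 fibroblast genes, called mixed barcodes here, were 7.29% of members and 19.0% of other fibroblasts in library 1. In library 2 they were 14.8% of members and 35.4% of other fibroblasts, and 77.8% of the remaining class. Among 4 endocardial markers none was at 0, and their summed level was 355 CPM (UMIs of a gene per 1000000 UMIs of the class) in members and 420 in other fibroblasts of library 1, and was 895 and 1868 CPM in library 2. The 7 endothelial markers summed to 643 and 745 CPM in library 1 and to 1261 and 1938 CPM in library 2. The 6 pericyte markers summed to 482 and 926 CPM in library 1 and to 282 and 752 CPM in library 2. The 5 glial markers summed to 496 and 692 CPM in library 1 and to 449 and 601 CPM in library 2, with Sox10 at 0 in the members of both and Scn7a at 401 and 337 CPM in members. Not all sums were lower in members of both libraries. The 5 valve interstitial markers summed to 123 CPM in members and 46.8 CPM in the other fibroblasts of library 1, and to 81.3 and 37.8 CPM in library 2, with Chad at 0 in members. The 6 macrophage markers summed to 282 and 173 CPM in library 1 and to 282 and 528 CPM in library 2. The 8 cardiomyocyte markers were lower in members of both, at 10909 and 13825 CPM in library 1 and at 2392 and 2952 CPM in library 2. Results are given below with and without the mixed barcodes for several lists and genes.

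Each of the 5 defining genes stood higher in members than in the pooled other fibroblasts of both libraries, a difference that the rule sets. The rule also left out fibroblasts with at least 2 A UMIs whose B or C sum was as large or larger, 169 (12.7% of other fibroblasts) in library 1 and 737 (22.1%) in library 2. Pi16 (ENSMUSG00000024011, chr17:29317680-29330593, plus strand, GRCm38, GENCODE vM21) stood at 827 CPM in members of library 1, with an exact Poisson interval from 749 to 911. Library 2 gave 693 CPM, with an interval from 655 to 733. In the other fibroblasts it stood at 61.4 and 79.1 CPM, and in cardiomyocyte barcodes, which should lack it, at 2.47 and 4.66 CPM. A Pi16 UMI was seen in 67.2% and 78.8% of members, against 1.39% and 3.45% of cardiomyocyte barcodes, whose median depth was 4779 and 6786 UMIs. After every barcode was thinned to 1000 UMIs, the members' shares were 47.6% and 49.3% and those of the cardiomyocyte barcodes 0.270% and 0.462%, with 5 and 4 shallower members left out. These shares describe members chosen at full depth on the same UMIs.

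Cd248 (ENSMUSG00000056481, chr19:5068078-5070682) reached 321 and 331 CPM in members and 25 and 40.3 CPM in the other fibroblasts. Gfpt2 (ENSMUSG00000020363, chr11:49794178-49838613) reached 895 and 1087 CPM, against 94.8 and 107 CPM. Adgrd1 (ENSMUSG00000044017, chr5:129096750-129204599), an adhesion G protein-coupled receptor, was at 541 and 536 CPM in members, against 50.1 and 55.1 CPM. Has2 (ENSMUSG00000022367, chr15:56665627-56694539, minus strand) was at 54.5 and 95.5 CPM, against 2.98 and 10.4 CPM. The low levels in the other fibroblasts were still above those of cardiomyocyte barcodes, where the same 4 genes did not pass 3.64 CPM in either library. Among the other classes, Smoc2/Col15a1 fibroblasts had the highest Pi16, at 78.3 and 106 CPM.

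**Figure D1:**
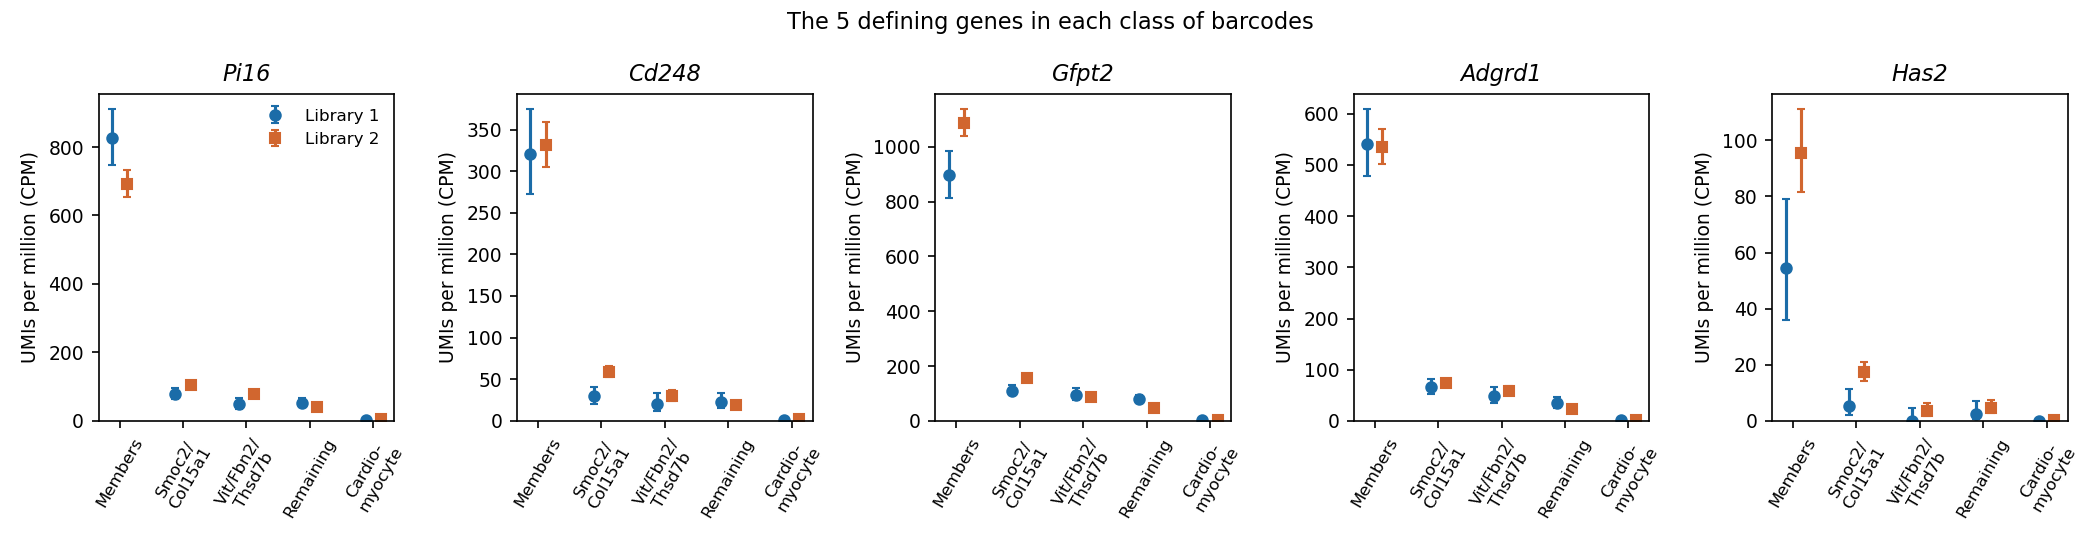
Level of each defining gene in CPM (vertical axes, linear) for members, the 3 other fibroblast classes and cardiomyocyte barcodes, with 1 point per library and exact Poisson 95% intervals of the summed counts. Pi16 stood at 827 and 693 CPM in members and at 106 CPM or below in every other class drawn, a separation that the rule itself sets.

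The targeted genes were read in these barcodes as a check. Ep300, which encodes p300, stood at 135 and 150 CPM in members and at 130 and 166 CPM in the other fibroblasts. Crebbp, which encodes CBP, stood at 496 and 527 CPM, against 447 and 575 CPM. Neither was called different (edgeR adjusted p = 0.82 and 0.96). These 3' counts do not show whether a deleted exon is missing, so they check nothing about the knockout. GFP UMIs numbered 3 and 5 in members, a level of 6.05 and 2.84 CPM, beside 44.0 and 39.0 CPM in cardiomyocyte barcodes.

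Members differed among themselves in how many of the defining genes they showed. In library 1, 39.1% showed 2 of the 5 genes and 2.60% showed all 5. In library 2, 28.6% showed 4 and 12.1% showed all 5, with deeper libraries behind each barcode. A single gene supplied every A UMI in 14.1% and 11.6% of members. Pi16 or Cd248 was seen in 77.6% and 88.2%, so 43 and 48 members entered the class on Gfpt2, Adgrd1 and Has2 alone. In library 2, Has2 was seen in 26.8% of members with a Gfpt2 UMI and in 6.35% of those without. In library 1 the shares were 11.6% and 6.52%. Pi16 went the other way, at 66.4% and 78.1% of members with a Gfpt2 UMI and 69.6% and 82.5% of those without. All these genes count in the rule that chose the members, and depth was not matched, so the shares are description only. Most members also carried B or C UMIs: 88.5% and 90.6% had at least 1.

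The count of A UMIs ran from the threshold of 2 (25 and 46 members) to over 5 (93 and 294 members). A list of 30 genes known from adventitial fibroblasts, none of them a defining gene, was summed along this scale as a description. Its level was 3207 and 3597 CPM in fibroblasts with no A UMI. Just outside the rule, in 35 and 101 barcodes whose single A UMI exceeded B and C, it was 3684 and 4044 CPM. Just inside, in members with 2 UMIs, it was 4767 and 4863 CPM. Members with over 5 A UMIs reached 9766 and 11320 CPM. The summed level of 25 genes known from interstitial fibroblasts was not lower at the top of the scale than at the threshold: it was 7927 and 7278 CPM above 5 UMIs and 6548 and 3654 CPM at 2.

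**Figure D2:**
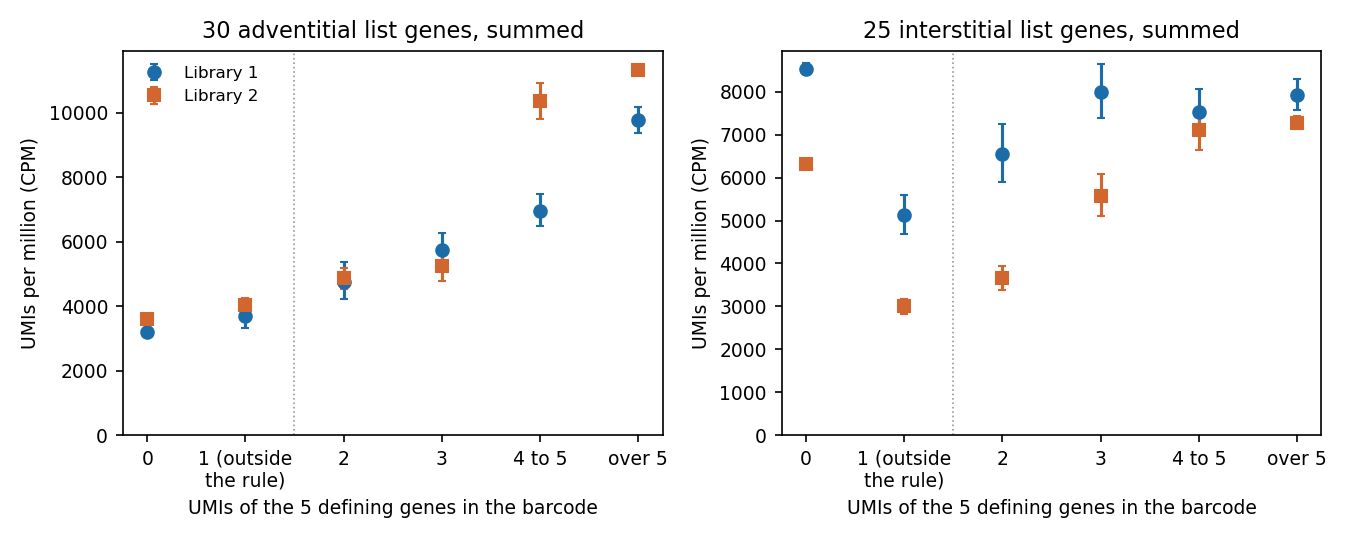
Summed level of 30 adventitial and 25 interstitial list genes (vertical axes, CPM, linear) against the number of UMIs of the 5 defining genes in the barcode, with 1 point per library, exact Poisson 95% intervals and a dotted line at the rule's threshold. The adventitial sum went from 3207 and 3597 CPM at 0 UMIs to 9766 and 11320 CPM above 5.

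Fibroblasts of each library were also clustered without the rule genes, to see where members fell. In library 1, 1 cluster of 248 barcodes took 114 of 192 members (59.4%), and members were 46.0% of it. Its leading genes included Papln, Adgrg2, Efhd1, Sema3c, Efemp1 and Uap1. In library 2, 1 cluster of 597 barcodes took 250 of 406 members (61.6%), and members were 41.9% of it. Its 10 leading genes were Esco2, Duox1, Iqgap3, Depdc1a, Duoxa1, Stmn4, Cep55, Neil3, Melk and Prdm8, of which 6 (Esco2, Iqgap3, Depdc1a, Cep55, Neil3 and Melk) are known from dividing cells. Placement moved with the number of A UMIs: 24.0% and 6.52% of members with 2 UMIs were in these clusters, against 76.3% and 75.2% of members with over 5. In library 2, 23 of the 46 members with 2 UMIs sat in another cluster, led by Cntnap4, Wnt9b, Tmem108, Pthlh, Smoc1 and Nrg1. Members outside the main cluster had Npr3 at 141 and 695 CPM and Nrg1 at 319 and 196 CPM. Members inside it had Npr3 at 3.93 and 32.7 CPM and Nrg1 at 7.87 and 15.3 CPM. Npr3 and Nrg1 are both markers on the endocardial list. Fibroblasts that shared the cluster without being members had an adventitial sum of 6977 and 7259 CPM, beside 10752 and 12734 CPM in the members there. Members outside the cluster had 4873 and 7132 CPM, below the non-members inside it. Pi16 stood at 171 and 223 CPM, Gfpt2 at 260 and 303 CPM and Has2 at 15.3 and 50.3 CPM in those non-members.

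Across all other genes, UMIs were summed per library for members and for all other fibroblasts, and edgeR's quasi-likelihood test with the library as a block was applied to these 4 sums. It called 544 of 12824 genes higher in members (4.24%) and 797 lower (6.21%) at a Benjamini-Hochberg adjusted p under 0.05. The sums left 1 residual degree of freedom, and edgeR gave all genes 1 common spread, so its p-values are optimistic. A fit of 8 sums, with the 3 other classes kept apart and members set against their mean, called 274 higher (2.26% of 12138) and 155 lower (1.28%). Of the 544 and 797 genes, 273 and 155 were also called in that direction with 8 sums. DESeq2 called 166 higher (1.29%) and 128 lower (0.998%). Without the mixed barcodes 388 were higher (3.3% of 11764) and 394 lower (3.35%), which is 6.65% in either direction, and 342 and 322 of the original calls were among them. A total of 148 genes were higher and 60 lower in all 4 fits. With no library block edgeR called no gene, and 516 passed an unadjusted p under 0.05. The marker sets were drawn up with these cells in view and the other genes were counted in the same cells. The calls therefore describe how far the division reaches into other genes, and are not an independent test that the class exists.

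The 2 genes with the largest positive log2 differences encode partners in hydrogen peroxide production. Duox1, an NADPH oxidase of the plasma membrane, had 15 and 103 UMIs in members, a level of 30.3 and 58.6 CPM, against 2.68 and 1.79 CPM in the other fibroblasts. Its log2 difference was 4.62 ± 0.32 (SE, edgeR adjusted p = 4.2e-45, and 5.6e-05 with 8 sums). Duoxa1, the maturation factor that Duox1 needs to reach the cell surface, was at 22.2 and 34.1 CPM against 0.596 and 1.79 CPM. That was a log2 difference of 4.36 ± 0.41 (edgeR adjusted p = 1.1e-23, and 0.00012 with 8 sums). Members inside the main cluster carried most of both: Duox1 stood at 55.1 and 94.0 CPM there and at 4.14 and 14.1 CPM in members outside it. Both libraries placed members above the other fibroblasts for both genes.

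Other leading genes were also higher in members of both libraries. Papln, which encodes the matrix protein papilin, was at 66.6 and 65.4 CPM in members and 7.15 and 6.94 CPM in the other fibroblasts (log2 3.21 ± 0.24). Cmah, the enzyme that converts one sialic acid into its glycolyl form, was at 68.6 and 318 CPM against 10.4 and 36.6 CPM (3.03 ± 0.15). Its level in members of library 1 was 122 CPM inside the main cluster and 12.4 CPM (3 UMIs) outside. In members of library 2 it was 374 CPM inside and 248 CPM outside. Non-members inside the cluster had 12.2 and 18.5 CPM. Ackr2, a scavenging receptor for inflammatory chemokines, was at 34.3 and 23.9 CPM against 1.79 and 2.10 CPM (3.69 ± 0.40). Efhd1, a calcium-binding mitochondrial protein, was at 46.4 and 114 CPM against 12.8 and 13.3 CPM (2.77 ± 0.20). Adgrg2, another adhesion G protein-coupled receptor, was at 88.7 and 117 CPM against 12.2 and 19.3 CPM (2.64 ± 0.18). These 5 genes were also called with 8 sums, by DESeq2 and without the mixed barcodes.

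A second set rested on fewer molecules or fewer fits. Stmn4, Prdm8, Islr2 and Dact2, with 29 to 57 UMIs in members over both libraries, were called with 8 sums and without the mixed barcodes. Ip6k3 and Fez1 had only 3 UMIs each in members of library 1 and were not called by DESeq2 (adjusted p = 0.11 and 0.14). Dkk2, a secreted Wnt antagonist, was at 30.3 and 11.4 CPM in members against 1.19 and 0.624 CPM. Its level was 62.1 and 16.7 CPM in members outside the main cluster and 0 and 7.15 CPM inside, with all 15 UMIs outside in library 1 and 13 of 20 in library 2. Wnt9b, a Wnt ligand, was listed at 0 inside the cluster in both libraries and at 12.4 and 34.6 CPM outside it. Fam167a had 3 and 21 UMIs in members and was at 18.4 CPM inside the cluster in library 2 and at 0 there in library 1. Dkk2, Wnt9b and Fam167a were too low to be tested once the mixed barcodes were left out.

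**Figure D3:**
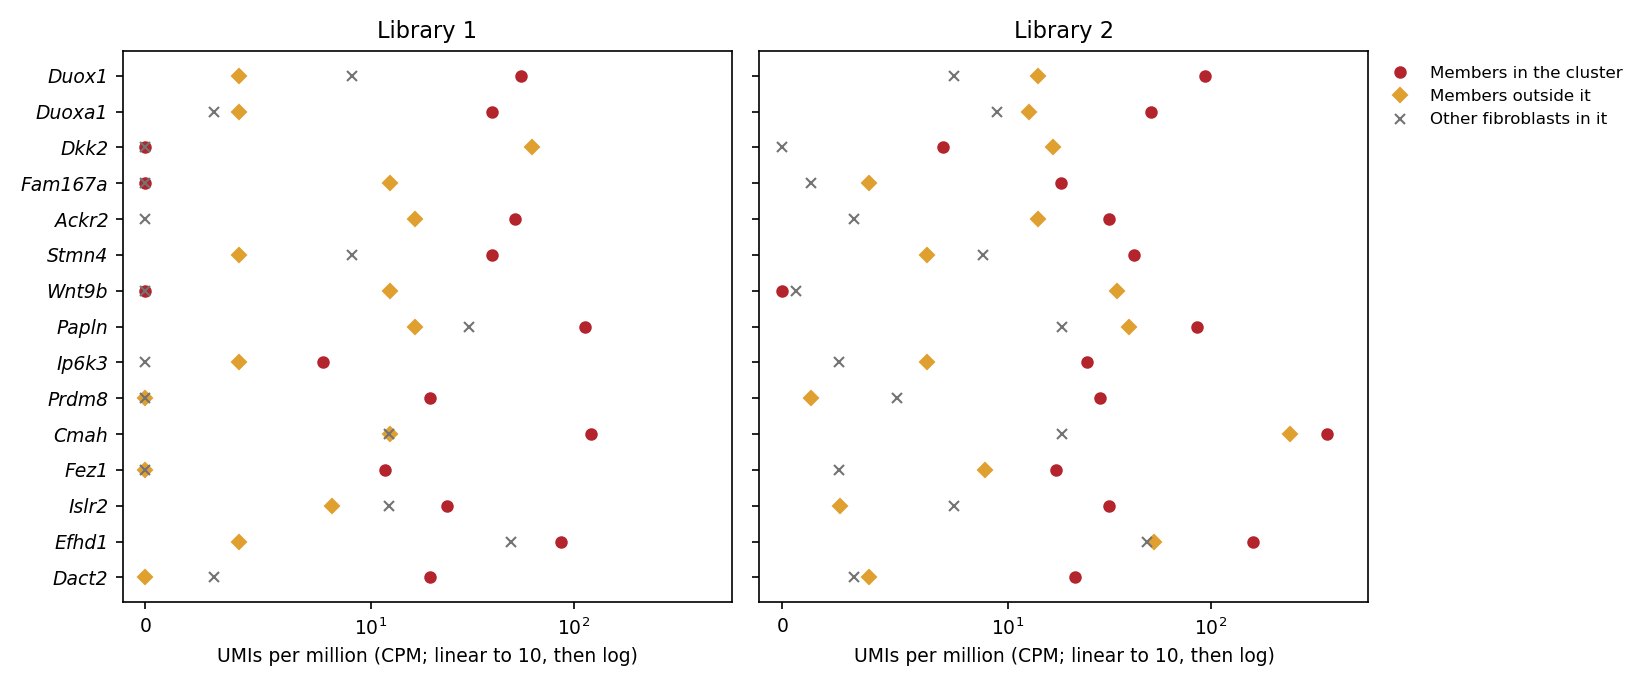
Level (horizontal axes, CPM, linear to 10 and logarithmic above) of the 15 genes with the largest positive log2 difference, in members inside the main cluster of their library, members outside it and other fibroblasts inside it. Duox1 was at 55.1 and 94.0 CPM in members inside and at 4.14 and 14.1 CPM in those outside, while Dkk2 and Wnt9b were higher in the members outside.

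Of 29 tested genes on the adventitial list, 24 were higher in members and 1 was lower, with a median log2 difference of 1.18 beside -0.03 over all tested genes. With 8 sums, 20 of 28 were higher and none lower, and without the mixed barcodes 23 of 28 were higher and none lower. In both libraries 24 of the 29 stood above the other fibroblasts, as did 28.6% of all tested genes. Several of these genes are known from the same kind of cells as the defining genes, so the list is no independent support for the label. Sema3c, a secreted guidance cue, was at 315 and 620 CPM in members against 67.3 and 96.0 CPM (log2 2.50 ± 0.13, edgeR adjusted p = 4.3e-06 with 8 sums). Mfap5, a microfibril protein, was at 627 and 901 CPM against 175 and 283 CPM (1.73 ± 0.11). Cd55, which restrains complement, and Ackr3, a chemokine-scavenging receptor, had log2 differences of 1.62 ± 0.13 and 1.54 ± 0.12. Axl, a receptor tyrosine kinase, and Creb5, a transcription factor, had 1.35 ± 0.11 and 1.25 ± 0.11.

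Cd34 was at 466 and 645 CPM in members and 197 and 285 CPM in the other fibroblasts, a log2 difference of 1.19 ± 0.11. Non-members inside the main cluster had Cd34 at 385 and 651 CPM, beside 562 and 841 CPM in the members there. Dpp4 behaved otherwise. It was at 84.7 CPM in members and 30.7 CPM in the others of library 1, and at 151 and 123 CPM in library 2. Its log2 difference of 0.54 ± 0.15 was called with 4 sums (edgeR adjusted p = 0.0041) and not with 8 (adjusted p = 0.097). The remaining class of library 2 had Dpp4 at 256 CPM, above the members. Without the mixed barcodes the log2 difference of Dpp4 was 1.72 (edgeR adjusted p = 3.3e-08), and it was called against Smoc2/Col15a1 fibroblasts (1.88, adjusted p = 0.014). Opcml, the list's single lower gene, had a log2 difference of -1.04 that was not called with 8 sums and stood at 0.53 without the mixed barcodes. Among called genes on the list, Fn1 and Igfbp5 changed side between libraries. Fn1, which encodes fibronectin, was at 105 and 391 CPM in members against 128 and 194 CPM, and Igfbp5, a binding protein of insulin-like growth factors, at 74.6 and 562 CPM against 158 and 273 CPM. These 2 were picked out after their values were seen.

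Of the 25 interstitial list genes, 3 were higher, 10 were lower and 12 did not pass the test, with a median log2 difference of -0.60. With 8 sums only 1 was lower, and without the mixed barcodes 12 of 22 were lower. Apoe, a lipid carrier, was at 419 and 292 CPM in members against 872 and 676 CPM (-1.16 ± 0.11), and it was the gene still lower with 8 sums (edgeR adjusted p = 0.0043). Gpm6b, a membrane proteolipid, was at 222 and 192 CPM against 360 and 421 CPM (-0.98 ± 0.12). The 3 higher genes were Ecm1 (1.29 ± 0.13), the proprotein convertase Pcsk6 (1.14 ± 0.11) and the transcription factor Tcf21 (0.90 ± 0.18).

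**Figure D4:**
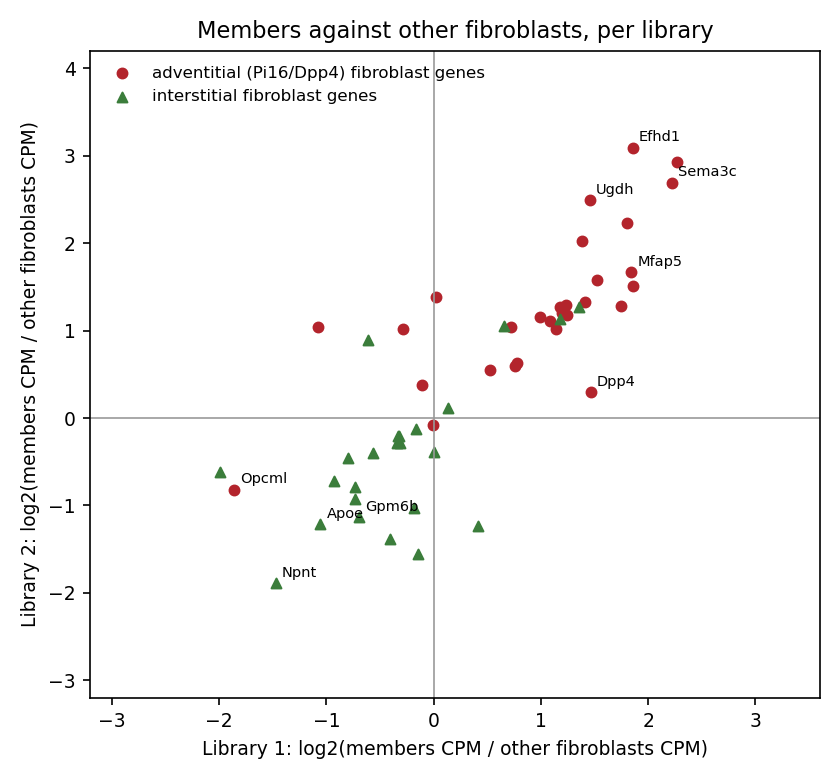
Log2 ratio of CPM in members to CPM in the other fibroblasts, library 1 (horizontal) against library 2 (vertical), for tested genes of the adventitial and interstitial lists, with 1 point per gene. Of the 29 adventitial genes 24 lie above 0 on both axes, with Opcml below 0 on both, while most interstitial genes lie below 0.

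Genes of hyaluronan synthesis and its sugar precursors were a second group that stood high in members. Of 20 tested genes on that list, 9 were higher and 1 was lower, with a median log2 difference of 0.34. With 8 sums 5 of 18 were higher, and without the mixed barcodes 5 of 17. Uap1, which makes UDP-N-acetylglucosamine in the last step of the hexosamine pathway, was at 597 and 506 CPM in members against 112 and 108 CPM. Its log2 difference was 2.29 ± 0.12 (edgeR adjusted p = 2.1e-77, and 4.3e-06 with 8 sums), with both libraries well apart. Ugdh, which makes UDP-glucuronic acid, was at 113 and 227 CPM against 41.1 and 40.5 CPM (2.16 ± 0.14, adjusted p = 0.00012 with 8 sums in edgeR). Pgm3, between Gfpt2 and Uap1 in the pathway, was at 42.4 and 56.3 CPM against 20 and 26.7 CPM (1.06, adjusted p = 0.0079 with 8 sums in edgeR).

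Not every enzyme of the route was called. Gfpt1, which catalyses the same step as Gfpt2, was at 78.7 and 88.1 CPM in members against 61.7 and 90.0 CPM (log2 0.06, edgeR adjusted p = 0.917). Gnpnat1, the acetyltransferase of the pathway, was at 20.2 and 12.5 CPM against 13.1 and 13.1 CPM (0.12). Ugp2, which makes UDP-glucose for Ugdh, was at 226 and 309 CPM against 186 and 211 CPM (0.43), called with 4 sums and not with 8 (edgeR adjusted p = 0.110). The synthase gene Has1 was low, at 4.03 and 13.1 CPM against 2.98 and 3.74 CPM. Pgm3, Gfpt1, Gnpnat1, Ugp2 and Has1 were named after their values were seen.

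Among proteins that bind or organise hyaluronan, Tnfaip6, which transfers protein chains onto it, was at 28.2 and 89.3 CPM in members against 12.2 and 14.3 CPM (2.31 ± 0.22, edgeR adjusted p = 0.0016 with 8 sums). Non-member fibroblasts inside the main cluster had Tnfaip6 at 55.1 and 37.6 CPM, beside 39.3 and 146 CPM in the members there. Vcan, the proteoglycan versican, was at 252 and 390 CPM against 87.9 and 164 CPM (1.33 ± 0.13). Hapln1, a link protein that is also on the valve interstitial list, was at 52.4 CPM in members of library 1 and 6.82 CPM in library 2, with 104 CPM in the library 1 members outside the cluster and 3.94 CPM inside. Tmem2, a hyaluronan-degrading membrane protein, had a log2 difference of -0.96 with all barcodes and 0.10 (edgeR adjusted p = 0.88) without the mixed ones.

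**Figure D5:**
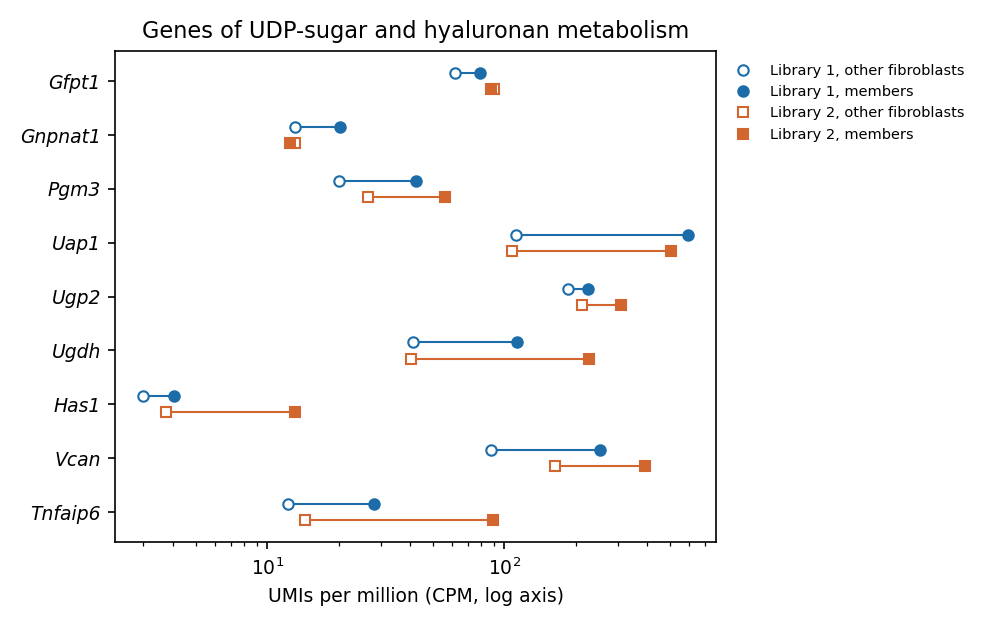
Level in CPM (horizontal axis, logarithmic) of 9 genes of UDP-sugar and hyaluronan metabolism in the other fibroblasts (open) and members (filled) of each library, joined by a line. Uap1 moves from 112 and 108 CPM to 597 and 506 CPM, while Gfpt1 and Gnpnat1 differ little between the classes.

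The upstream stretches of Gfpt2, Uap1 and Ugdh are shown because these 3 genes of UDP-sugar synthesis stood high in members. For Gfpt2, a defining gene, the rule itself sets this level, and only Uap1 and Ugdh were tested. They come from RefSeq (GRCm38.p6), run 5′ to 3′ on the gene's strand and stop before every annotated start and neighbouring exon. The positions are chr11:49793905-49794154 on the plus strand for Gfpt2, chr1:170174965-170175179 on the minus strand for Uap1 and chr5:65435950-65436092 on the minus strand for Ugdh. Capitals mark the GC box, the letters GGGCGG on either strand (CCGCCC on the other).
Gfpt2: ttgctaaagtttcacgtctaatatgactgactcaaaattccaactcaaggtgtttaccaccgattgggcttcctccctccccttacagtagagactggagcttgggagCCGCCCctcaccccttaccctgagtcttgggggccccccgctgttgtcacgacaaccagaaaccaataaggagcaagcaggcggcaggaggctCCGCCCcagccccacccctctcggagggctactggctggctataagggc
Uap1: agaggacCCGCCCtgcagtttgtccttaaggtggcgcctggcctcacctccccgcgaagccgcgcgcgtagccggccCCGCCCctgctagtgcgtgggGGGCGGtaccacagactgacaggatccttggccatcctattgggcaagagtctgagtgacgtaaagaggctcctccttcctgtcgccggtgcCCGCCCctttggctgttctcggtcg
Ugdh: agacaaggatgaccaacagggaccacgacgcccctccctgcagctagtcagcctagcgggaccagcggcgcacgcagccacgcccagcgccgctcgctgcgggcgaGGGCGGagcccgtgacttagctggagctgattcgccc
The Gfpt2 stretch held 2 GC boxes, the Uap1 stretch 4 and the Ugdh stretch 1. Over the same windows of 32851 RefSeq promoters, 32.7%, 31.6% and 15.7% held at least 1. A CCAAT box (CCAAT or ATTGG) was in the first 2 stretches and not in the third, beside 33.8%, 30.7% and 19.0% of all promoters. Such matches describe letters only, and no binding was measured.

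Microfibril and elastic fibre genes were a further group. Of 21 tested, 8 were higher in members and none was lower, and the same counts were found with 8 sums and by DESeq2. At an unadjusted p under 0.05 edgeR gave 10 higher and 4 lower. Without the mixed barcodes 9 of 20 were higher and 4 lower. The median log2 difference was 0.34. Efemp1, a fibulin-family matrix protein, was at 70.6 and 113 CPM in members against 17.0 and 23.1 CPM (2.20 ± 0.18). Emilin2 was at 64.5 and 105 CPM against 18.5 and 22.2 CPM (2.10 ± 0.18), and Adamtsl3, a secreted ADAMTS-like protein, at 793 and 905 CPM against 198 and 271 CPM (1.84 ± 0.11). Fbn1, which encodes fibrillin-1 and was named after its values were seen, was at 1123 and 1604 CPM against 481 and 599 CPM (1.31). Eln, which encodes elastin itself, was not called, at 736 and 690 CPM against 878 and 767 CPM (-0.22, edgeR adjusted p = 0.245).

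Collagens were called in both directions, and the counts depended on the fit. Of 23 tested, 6 were higher and 9 lower. With 8 sums 1 was higher and none lower, DESeq2 called 2 higher and 1 lower, and without the mixed barcodes 1 was higher and 7 were lower. The largest positive differences among these called genes were those of Col14a1 (0.68 ± 0.13), Col5a1 (0.51 ± 0.11), Col3a1 (0.48 ± 0.10) and Col1a1 (0.47 ± 0.11). Only Col5a1 was called with 8 sums, and without the mixed barcodes only Col14a1 was called higher (0.40, edgeR adjusted p = 0.046). Col6a6 was the clearest of the lower ones, at 96.8 and 78.5 CPM against 235 and 179 CPM (-1.24 ± 0.15, adjusted p = 0.13 with 8 sums). Over all tested genes 4.24% were called higher and 6.21% lower with 4 sums, and 2.26% and 1.28% with 8. Among 33 proteoglycans and glycoproteins 9 were higher and 8 lower, and 4 and 2 with 8 sums. Spon1, a secreted spondin, was at 72.6 and 114 CPM against 225 and 344 CPM (-1.62 ± 0.14, edgeR adjusted p = 0.0013 with 8 sums). Among 24 laminins and integrins 7 were higher and 7 lower, and 3 and 2 with 8 sums. Itgb3 (1.40 ± 0.22) and Itga5 (0.95 ± 0.14), integrin subunits that recognise RGD ligands, were higher. Itga8, another such subunit, was lower at 26.2 and 15.9 CPM against 94.8 and 94.0 CPM (-2.37 ± 0.21, edgeR adjusted p = 0.0051 with 8 sums). Of 35 proteases and inhibitors 9 were higher and 7 lower, and with 8 sums 6 of 34 were higher and 2 lower. Pcolce2 (1.21 ± 0.12), an enhancer of procollagen processing, and Timp2 (0.93 ± 0.12) were among those higher with 4 sums.

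With 4 sums, more genes were lower than higher in 3 of the signalling lists. The same held over all tested genes (6.21% lower and 4.24% higher), and with 8 sums these lists had near equal counts. Among 40 growth factor ligands, 6 were higher and 15 lower, with 3 and 4 of 40 in the fit of 8 sums. Without the mixed barcodes 5 of 39 were higher and 9 lower. Nov, a CCN-family matrix protein, was at 50.4 and 55.2 CPM against 25.3 and 8.03 CPM (2.09 ± 0.23), and Fgf2 at 96.8 and 123 CPM against 49.5 and 55.0 CPM (1.08 ± 0.15). Fgf18 had 5 and 21 UMIs in members (2.26 ± 0.48). Igfbp3, which binds insulin-like growth factors, was at 52.4 and 24.5 CPM against 245 and 108 CPM (-2.19 ± 0.18, edgeR adjusted p = 0.00026 with 8 sums). Nrg1 was lower in the pooled fit (-1.5), but stood above the other fibroblasts in library 1 (159 against 112 CPM) and below them in library 2 (95.5 against 550 CPM). Of 50 receptors 5 were higher and 13 lower, with 3 and 4 of 49 in the fit of 8 sums. Without the mixed barcodes the counts were 4 and 9 of 46. Ntrk3, the neurotrophin-3 receptor, had 1.22 ± 0.13 and Fgfr1 0.60 ± 0.12. Adra1a, the alpha-1A adrenergic receptor, was at 20.2 and 8.53 CPM against 72.1 and 33.4 CPM (-1.93 ± 0.27, edgeR adjusted p = 0.0012 with 8 sums).

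In the Wnt list 4 of 38 genes were higher and 3 lower, with 3 and 0 of 35 in the fit of 8 sums. Over all tested genes 4.24% were higher and 6.21% lower, or 2.26% and 1.28% with 8 sums. Besides Dkk2, the Wnt pathway modulator Dact2 (2.73 ± 0.48) and the ligands Wnt11 (1.38 ± 0.31) and Wnt9a (1.21 ± 0.27) were higher. In the TGF-beta and BMP list 4 of 37 were higher and 4 lower, with 3 and 0 of 37 in the fit of 8 sums. Fstl1, a follistatin-like secreted protein, was at 863 and 1336 CPM against 384 and 607 CPM (1.13 ± 0.11). Inhba, an activin subunit, had a log2 difference of 2.44 ± 0.26, which was 0.76 (edgeR adjusted p = 0.31) without the mixed barcodes. It was at 117 CPM in members outside the cluster of library 2 and 19.4 CPM inside. Among 44 axon guidance genes 4 were higher and 13 lower, with 3 and 3 of 42 in the fit of 8 sums. Without the mixed barcodes 3 of 36 were higher and 8 lower. Besides Sema3c, the netrin gene Ntn4 (1.5 ± 0.13) and the Slit receptor gene Robo1 (1.14 ± 0.12) were higher, and Nrp1, a semaphorin co-receptor, was lower (-0.92 ± 0.11). Cytokine, chemokine and complement genes gave 7 higher and 4 lower of 25, with 3 and 0 of 24 in the fit of 8 sums.

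Among 73 mesenchymal transcription factors 13 were higher and 8 lower, beside 4.24% and 6.21% over all tested genes. With 8 sums 7 of 70 were higher and 1 was lower, beside 2.26% and 1.28%. Against Smoc2/Col15a1 fibroblasts alone 2 were higher and 0 lower. Klf4, a zinc-finger factor that is also an immediate early gene, was at 107 and 166 CPM against 45.9 and 59.8 CPM (1.38 ± 0.14, edgeR adjusted p = 0.0018 with 8 sums). Of 23 immediate early genes 6 were higher and none lower, with a median of 0.43, and without the mixed barcodes 6 of 19 were higher. With 8 sums 4 of 19 were higher, and DESeq2 called 1. Junb (1.19 ± 0.23), Jun (0.90 ± 0.16) and Dusp1 (0.69 ± 0.14) were among them, genes that also respond to tissue handling, whose part was not tested. Activated and myofibroblast genes gave 1 higher, the collagen crosslinker Loxl2 (1.19 ± 0.14), and 5 lower of 24 (1 and 1 with 8 sums). Among these Acta2 was at 88.7 and 12.5 CPM against 178 and 16.8 CPM (-0.82 ± 0.20), beside a smooth muscle marker sum of 161 and 32.4 CPM in members and 387 and 75 CPM in the others, whose part was not tested. Adipogenic genes gave 1 higher (Ebf2, 0.65 ± 0.10) and 3 lower of 19 (1 and 0 with 8 sums).

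Over all tested genes, 4.24% were called higher and 6.21% lower. Of 3 further lists, only the acetyltransferase and deacetylase genes fell below both shares. Of 34 acetyltransferase and deacetylase genes none was higher and Hdac9 alone was lower (-0.48 ± 0.16), a call absent with 8 sums (edgeR adjusted p = 0.10). At an unadjusted p under 0.05, edgeR gave 2 higher and 1 lower, and DESeq2 called none. Of 27 interferon response genes none was higher and 3 were lower, with 0 higher and 9 lower at an unadjusted p under 0.05 in edgeR and none called by DESeq2. None was called with 8 sums or, among 24 tested, without the mixed barcodes. Of 20 proliferation genes 2 were higher, Tpx2 (1.30 ± 0.41) and Cdkn1a (0.82 ± 0.24), an activator of spindle assembly and an inhibitor of the cell cycle, and neither was called with 8 sums (edgeR adjusted p = 0.071 and 0.095).

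Cell adhesion genes gave 4 higher and 20 lower of 45, with a median log2 difference of -0.48, and 4 higher and 7 lower with 8 sums. Over all tested genes 4.24% were higher and 6.21% lower with 4 sums. Without the mixed barcodes 5 of 42 adhesion genes were higher and 10 lower. Against Smoc2/Col15a1 fibroblasts alone 5 of 45 were higher and 1 lower, with a median of 0.05. Against Vit/Fbn2/Thsd7b fibroblasts 4 were higher and 4 lower, with a median of -0.26. Thy1, a surface protein of many fibroblasts, was at 42.4 and 81.9 CPM against 14.6 and 19.0 CPM (1.94 ± 0.21), and Cadm3 (2.72 ± 0.27) was also higher. Among 41 ion channel and transporter genes 3 were higher and 11 lower, with 0 and 2 of 40 in the fit of 8 sums. Without the mixed barcodes the counts were 0 and 6 of 35. At an unadjusted p under 0.05 edgeR gave 4 higher and 15 lower channel genes, and DESeq2 called 0 and 4.

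The genes lowest in members lay largely in the remaining class. Of the 797 lower genes, 58.7% in library 1 and 63.2% in library 2 had their highest level among the 3 other classes there. Of the 544 higher genes, 20.4% and 21.1% did, and the share over all tested genes is not given here. Csmd1, a large membrane protein with complement-control domains, was at 12.1 and 4.55 CPM in members against 217 and 185 CPM (-4.95 ± 0.24, edgeR adjusted p = 0.00017 with 8 sums). Of its UMIs in the other fibroblasts, 623 of 728 in library 1 and 2203 of 2372 in library 2 were in a cluster of 27 and 44 barcodes that held 0 members and was led by Kcna1 in both libraries. Kcna1, Cadm2 and Slc35f1, all lower in members, were among the leading genes of that cluster in library 1. The Kcna1-led clusters also held 23 and 49 Gfra3 UMIs in libraries 1 and 2, and 55 Igsf11 UMIs in library 2. Gfra3, Igsf11, Kank4 and Grik3 had no UMI in any member. Against a floor of 3 counts over both libraries they were at least 3.85-fold, 3.67-fold, 3.58-fold and 3.53-fold lower in members, bounds that cover counting error only. H2-Ab1, an MHC class II gene, had 0 and 1 UMIs in members, against 9.54 and 7.87 CPM in the others.

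Set against each named class alone, with 8 sums, the differences were fewer. Against Smoc2/Col15a1 fibroblasts, 120 of 12138 genes were higher in members (0.989%) and 63 lower (0.519%), or 1.51% in either direction. Against Vit/Fbn2/Thsd7b fibroblasts, 176 were higher (1.45%) and 148 lower (1.22%), or 2.67% in either direction. The 2 comparisons share the members, and 89 genes were higher in both, 74.2% of the first list and 50.6% of the second. Cmah was higher by 3.34 and 3.67 on the log2 scale (edgeR adjusted p = 2.2e-05 in both) and Uap1 by 1.93 and 2.49 (0.00045 and 8.1e-05). Sema3c was higher by 2.15 and 2.35, and Efemp1 by 2.12 and 2.39. Adamts17, a matrix protease, differed by -1.16 and -1.54 (0.0255 and 0.00395), and Igfbp3 by -1.87 and -3.11 (0.0033 and 0.00016). Of 28 tested adventitial list genes, 16 were higher than in the Smoc2/Col15a1 class and 15 higher than in the Vit/Fbn2/Thsd7b class, with none lower. Svep1, a large adhesive matrix protein, differed by -1.18 (0.0223) and -1.70 (0.00215). Slit3, a Slit ligand, was not called against the Smoc2/Col15a1 class (-0.12, edgeR adjusted p = 0.894) and was lower than in the Vit/Fbn2/Thsd7b class (-1.01, 0.00816); whether the 2 differ was not tested. Leaving out mixed barcodes raised the calls to 564 against the first class and 911 against the second.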

How the data were processed

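UMI counts were deposited by the authors as 1 feature-by-barcode matrix holding both libraries (27999 features, 22183 barcodes), and the file headers name Cell Ranger 6.0.0 as its source. Further tools in the submitters' processing notes are fastp, Trimmomatic, Seurat and edgeR, with the builds GRCm38 and mm10. Barcode suffixes assign each barcode to its library. Library totals were 57982200 and 50199793 UMIs, and sums for members held 495832 and 1758438 UMIs.

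Members and the other classes were found by the rule above. UMIs were summed per library and class and tested with edgeR 4.0.16 (R 4.3.3: TMM factors, filterByExpr, glmQLFit, glmQLFTest, library block, Benjamini-Hochberg adjustment over non-rule genes, called at adjusted p under 0.05). The 23 rule genes were not tested. The script was tested on simulated data: all of 100 genes changed 2-fold and of 100 changed 4-fold were recovered among 12627 genes, with 5.21% false calls. The simulated counts gave every gene the same spread, taken from the fit of 4 sums, and only well-counted genes were changed. The simulation therefore checks the code and cannot give the rate of false calls in these data. A level is CPM within a summed class. Doublets were scored with Scrublet at a threshold from simulated doublets, because the automatic one marked 0 of 12736 barcodes in library 1; 6 and 18 members were marked and kept. Clusters came from Leiden (scanpy 1.11.5, leidenalg 0.10.2, resolution 0.5). RefSeq entries matched 3 of 3 genes whose upstream sequence is shown.

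The members and gene lists were chosen with earlier results of these data known. Named genes were the 15 with the largest positive and 10 with the most negative log2 difference among called genes that had the same direction in both libraries and at least 20 UMIs, excluding predicted gene models. To these were added up to 4 called genes per list and direction, the highest uncalled gene of a list, the rule genes, Ep300, Crebbp, GFP, Dpp4 and Cd34. Library replicate numbers name the samples and served as the block because classes come from the same library. Alternatives were no TMM factors, no filter on low counts, DESeq2 1.42.0, no block, other thresholds for A and cardiomyocyte RNA, thinning to 1000 UMIs, no marked doublets and, chosen after seeing the data, no mixed barcodes. A named gene and a marker gene are not reported here.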

Additional observations from a re-analysis of the deposited data

How the results depend on the processing

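The count of genes higher in members (544) stayed between 388 and 600 under 7 alternatives, and moved to 166 with DESeq2, 295 with barcodes thinned to 1000 UMIs, 274 in the fit of 8 sums and 0 with no replicate block, where 516 genes in either direction passed an unadjusted p under 0.05. The count lower (797) moved to 128 with DESeq2, 438 with thinning, 155 with 8 sums, 462 with A of at least 1 UMI, 394 without mixed barcodes and 0 with no replicate block. Genes differing from Smoc2/Col15a1 fibroblasts (183) numbered 596 with no filter on low counts, 331 with A of at least 1 UMI, 564 without mixed barcodes and 0 with no replicate block (402 unadjusted, edgeR). Genes differing from Vit/Fbn2/Thsd7b fibroblasts (324) numbered 800 with no filter, 911 without mixed barcodes and 0 with no replicate block (618 unadjusted, edgeR). The cause of these shifts was not tested. The member share of 11.7% was 10.3% with A of at least 3 UMIs, 14.2% with at least 1, 9.08% after thinning and 14% without mixed barcodes, and 10.9% to 12.6% leaving out each library. Leaving out a library leaves no residual degrees of freedom, so counts of calls could not be recomputed that way.

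Of 174 called named genes, 161 kept their direction under every refitted alternative. On the log2 scale, these reversed without mixed barcodes: Opcml 0.53, Tmem2 0.10, Col23a1 0.59, Eng 0.070, Bmp6 0.073, Ptgs1 0.31, Kcnc2 -0.96 and Scn3a 0.040. With A of at least 1 UMI, the reversals were Tmem2 0.15, Col23a1 0.10, Eng 0.031, Npr3 0.072, Ptgs1 0.20, Cdh11 0.42, Sema5b 0.38 and Epha7 0.16. DESeq2 gave Ccl2 -0.55 and Igfbp5 -0.023, and thinning gave Kcnc2 -0.081 and Igfbp5 -0.58. Leaving out each library in turn, the value ran from -2.14 to 1.13 for Itga4, -2.53 to 0.50 for Nrg1, -0.81 to 0.13 for Fabp4, -0.049 to 0.75 for Itih5, -0.28 to 1.01 for Fn1 and -1.08 to 1.04 for Igfbp5, with the reversal in library 1. Depth limits genes with few UMIs, such as Fez1, Ip6k3 and Has1, to which counting error in library 1 applies most.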
